A study of Mus musculus with 9 samples.

Results

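Genes of splicing factors were compared between macrophage clones that carried a FoxQ1 construct and clones that carried the empty vector. The members were all rows of the deposited expression table whose gene symbol starts with Srsf (SR proteins), Hnrnp (hnRNP proteins), Sf3a or Sf3b (the SF3 complexes) or Snrp (snRNP proteins), which gave 40 of 16492 gene rows. Of these, 11 were SR, 14 hnRNP, 8 SF3 and 7 snRNP genes. Symbols were taken from RefSeq through the Entrez ID of each row, and 39 of the 40 also had their symbol in the annotation of the array. Hnrnpa1, Hnrnpa3, Hnrnpf, Hnrnph2, Hnrnpk, Hnrnpul1, Sf3b4, Snrpa, Snrpc, Snrpd2, Snrpg and Snrpn have the same prefixes and were not analysed here.

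The cells were RAW-264.7, a murine monocyte/macrophage line. RAW-FoxQ1 cells were transfected with pEF6/V5-His Topo holding a fragment that encodes murine FoxQ1, a forkhead transcription factor, and RAW-vector cells with pEF6/V5-His Topo alone. Both were selected and grown with blasticidin S at 6 µg/ml and received no further treatment, and total RNA of 5 RAW-FoxQ1 clones (7.1 to 7.5) and 4 RAW-vector clones (4 to 7) was hybridized to 1 Affymetrix array per clone. Each clone descends from a single cell, so that a difference between the groups is a difference between these 9 clones. Whether clones of a group stem from the same transfection is not stated in the sources used here. Nor is it stated whether clones 7.1 to 7.5 share a parent clone. The tests below treat the clones as independent. All values below are log2 expression values, normalised by the authors so that every array has the same distribution, with a median of 7.49. A gene was called higher or lower when its adjusted p was below 0.05 (limma fitted over all 16492 rows, Benjamini-Hochberg adjustment).

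Introns are removed from pre-mRNA by the spliceosome, which is built from small nuclear ribonucleoproteins (snRNPs). Each snRNP of the Sm class holds 1 small RNA inside a ring of Sm proteins, to which particle-specific proteins are added, and in the U2 snRNP the SF3A and SF3B complexes hold the branch site of the intron. SR proteins bind mostly exonic enhancers through RNA recognition motifs and recruit the core machinery through a domain rich in arginine and serine, whereas hnRNP proteins coat nascent RNA and often oppose the use of nearby splice sites. Many SR and hnRNP genes also control their own mRNA through exons that lead to its decay. The array gives 1 value per gene, so that no isoform and no splicing event was measured here.

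Foxq1 itself lay between 7.27 and 7.44 in RAW-FoxQ1 clones and between 6.94 and 7.01 in RAW-vector clones. The groups did not overlap, and 17.3% of all rows were separated in this direction. The log2 fold change of Foxq1 was 0.39, and all its values lay below the array median of 7.49. Of 14 macrophage marker genes, 12 had a signal above the median of all rows. The mean of the 14 was 10.89 to 11.06 in RAW-FoxQ1 clones and 11.09 to 11.36 in RAW-vector clones. Of the 14, 2 were called higher (14.3%) and 7 lower (50%), compared to 19.6% and 21.4% of all rows. For rows above the 75 percentile of mean signal these shares were 34.3% and 30.9%. The log2 fold changes of single markers ranged from -2.38 (Adgre1) to 1.0 (Msr1). Among markers of T cells, B cells, fibroblasts and epithelial cells, the genes above the median signal numbered 2 of 6, 0 of 4, 0 of 5 and 0 of 5. A list of 22 proliferation genes was called higher in full, with a median log2 fold change of 2.29 and a mean of 10.6 to 10.86 in RAW-FoxQ1 clones and 8.3 to 8.78 in RAW-vector clones. The poly-A controls, bacterial transcripts that are added to the RNA before labelling, were lower in RAW-FoxQ1 arrays, where their mean was 7.916 to 8.384, against 8.408 to 8.705 in RAW-vector arrays (27 probe sets, exact permutation test, two-sided, p = 0.0159). The 3′ minus 5′ difference of b-Actin, a measure of RNA integrity, was 0.536 to 0.841 in RAW-FoxQ1 and 0.738 to 0.862 in RAW-vector arrays (exact permutation p = 0.0635), and that of Gapdh was -0.048 to 0.097 in RAW-FoxQ1 and -0.095 to 0.025 in RAW-vector arrays (exact permutation p = 0.159), so that the group means differed in opposite directions. The part of proliferation and of macrophage markers in the changes of the splicing factors was not tested. That of the labelling controls was not tested beyond the covariate fit given at the end. In RNA of whole cultures, a change in the share of cells in a state and a change in RNA per cell cannot be told apart.

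Most splicing factor genes were higher in RAW-FoxQ1 clones. Of the 40 members, 28 were called higher and 3 lower, while 9 did not pass the test. Over all gene rows 19.6% were called higher and 21.4% lower. The median log2 fold change was 0.36 over the members (1.29-fold) and -0.01 over all rows. In 24 members every RAW-FoxQ1 clone lay above every RAW-vector clone, which held for 17.3% of all rows, and in 3 members every RAW-FoxQ1 clone lay below, which held for 18.8% of all rows. Hnrnph1, Srsf2, Hnrnpm, Srsf3, Srsf6 and Sf3a3 were the 6 members called higher by at least 1 on the log2 scale, as were 2.31% of all rows. Probes of these genes give bright signals, and the median member ranked at the 93.8 percentile of mean signal. Therefore rows of high signal were looked at as well. Rows above the 75 percentile had a median percentile of 87.5, against 94.3 for the members among them, so that they are dimmer than the members. Above the 75 percentile of mean signal 34.3% of rows were called higher and 30.9% lower, whereas of the 36 members in that range 26 were called higher and 2 lower. The 4 families had similar shares of higher calls, with 7 of 11 SR, 10 of 14 hnRNP, 5 of 8 SF3 and 6 of 7 snRNP genes, and the differences between families were not tested.

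**Figure D1:**
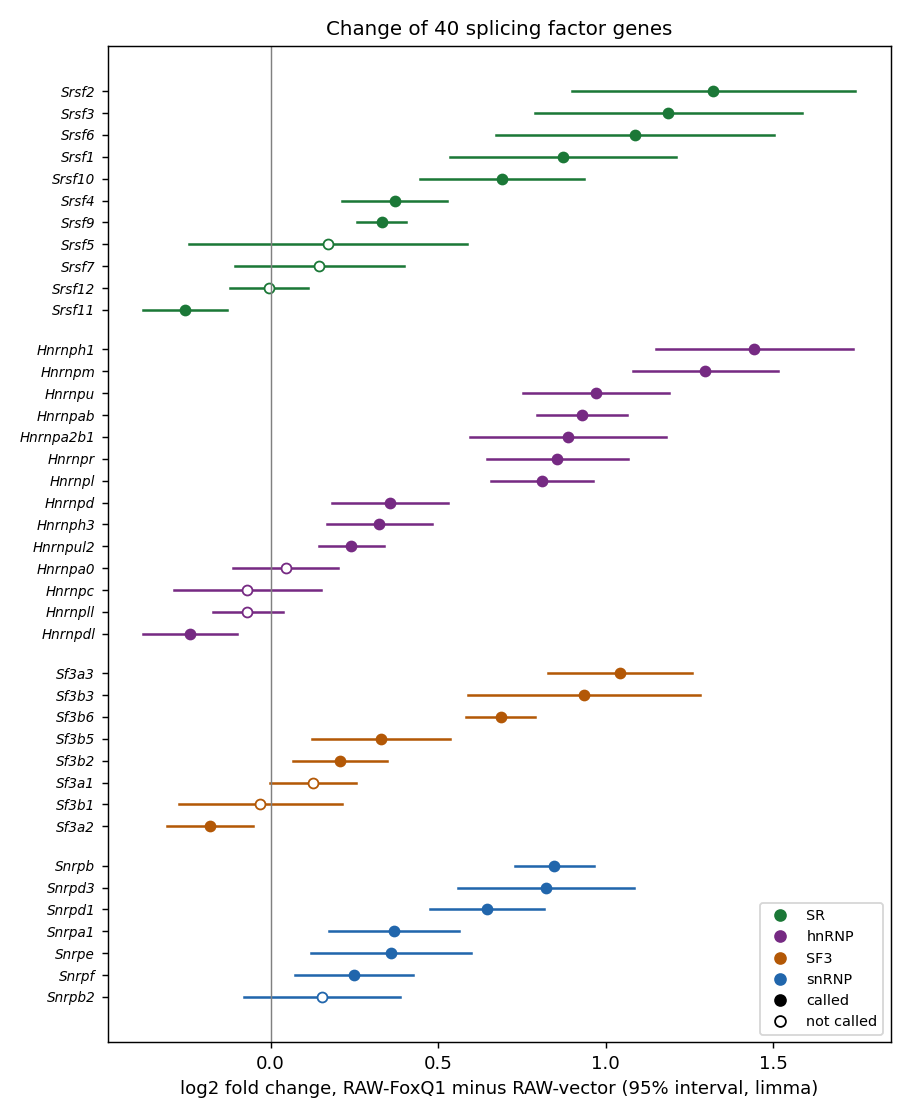
Log2 fold change (RAW-FoxQ1 minus RAW-vector, horizontal axis) of each of the 40 splicing factor genes, with the 95% interval from limma, coloured by family and sorted by size within it, with filled points for called genes. The 28 genes called higher lie to the right of 0 and extend to 1.44, whereas the 3 called lower lie between -0.25 and -0.18.

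All 5 measured genes of the Sm ring were called higher in RAW-FoxQ1 clones, where 19.6% of all rows were called higher. Their median log2 fold change was 0.65, and the groups overlapped for 2 of them. Snrpb, which encodes the SmB proteins (chr2:130171636-130179382, GRCm38.p6), had values of 12.92, 12.92, 12.85, 12.76 and 12.87 in RAW-FoxQ1 clones 7.1 to 7.5, against 11.94, 12.11, 12.1 and 11.94 in RAW-vector clones 4 to 7. The groups did not overlap, and both were tight compared with the distance between them. The log2 fold change was 0.85 (1.8-fold, standard error 0.0525, adjusted p = 2.5e-06, limma). Snrpd3 and Snrpd1, which encode SmD3 and SmD1, rose by 0.82 and 0.65 and did not overlap between groups either. The changes of Snrpe (0.36, adjusted p = 0.0218) and Snrpf (0.25, adjusted p = 0.0297) were smaller, and here the groups overlapped. Snrpe lay between 13.05 and 13.6 in RAW-FoxQ1 clones and between 12.84 and 13.09 in RAW-vector clones. Snrpf lay between 9.81 and 10.11 in RAW-FoxQ1 clones and between 9.57 and 9.87 in RAW-vector clones, and it was the higher-called member nearest to the threshold. The call of Snrpe was lost without RAW-FoxQ1 clone 7.4 (0.33) or RAW-vector clone 5 or 6 (0.31 and 0.34), and that of Snrpf without RAW-FoxQ1 clone 7.1, 7.2 or 7.5 (0.25, 0.24 and 0.21) or RAW-vector clone 5 or 6 (0.21 for each).

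The 2 remaining snRNP members belong to the U2 snRNP alone, where their products bind U2 RNA as a pair. Snrpa1, which encodes the A′ protein of U2, was called higher by 0.37 (adjusted p = 0.00676, limma), with values of 10.37 to 10.84 in RAW-FoxQ1 clones and 10.12 to 10.34 in RAW-vector clones. Its partner Snrpb2, which encodes the B″ protein of U2, was not called, and the log2 fold change of 0.15 had a 95% interval of -0.08 to 0.39. In RAW-vector clones Snrpb2 fell into a pair of higher values, 11.31 in clone 4 and 11.22 in clone 7, and a pair of lower ones, 10.84 in clone 5 and 10.87 in clone 6. The RAW-FoxQ1 clones lay between 11.13 and 11.38.

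The SF3 genes moved unequally. In the SF3A complex, Sf3a3 was higher, Sf3a2 lower, and Sf3a1 did not pass the test. Sf3a3 (chr4:124714861-124732423), whose product helps to join SF3A to the U2 particle, had values of 9.86, 10.1, 10.08, 10.03 and 9.82 in RAW-FoxQ1 clones 7.1 to 7.5, against 8.83, 8.98, 9.19 and 8.75 in RAW-vector clones 4 to 7. Every RAW-FoxQ1 clone lay above every RAW-vector clone, and the log2 fold change was 1.04 (2.06-fold, standard error 0.0958, adjusted p = 2.4e-05, limma). Sf3a2 had values of 7.82, 7.96, 7.9, 7.9 and 7.96 in RAW-FoxQ1 clones, against 7.97, 8.14, 8.23 and 8.01 in RAW-vector clones. These groups are separated by only 0.01 between clones 7.2 or 7.5 and clone 4. The log2 fold change of Sf3a2 was -0.18 (adjusted p = 0.0304, limma), and the call was lost without RAW-FoxQ1 clone 7.1 or 7.4 or RAW-vector clone 5 or 6, with values of -0.16, -0.18, -0.16 and -0.13. Sf3a1 was the member outside the threshold that was nearest to it, with a log2 fold change of 0.13 (95% interval -0.003 to 0.26, adjusted p = 0.114), and was called higher without clone 7.3 (0.17, adjusted p = 0.0161).

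In the SF3B complex 4 of 5 genes were called higher. Higher calls made up 19.6% of all rows and 34.3% of rows above the 75 percentile of signal. Sf3b3, which encodes a large scaffold subunit, lay between 10.97 and 11.28 in RAW-FoxQ1 clones and between 9.86 and 10.57 in RAW-vector clones (log2 fold change 0.94, adjusted p = 0.0009). Sf3b6, whose product lies next to the branch adenosine, lay between 11.53 and 11.7 in RAW-FoxQ1 clones and between 10.87 and 10.98 in RAW-vector clones (0.69, adjusted p = 3.7e-06). The groups overlapped for Sf3b5 (0.33, adjusted p = 0.0164) and Sf3b2 (0.21, adjusted p = 0.024). The call of Sf3b5 was lost without RAW-vector clone 4 or 7 (0.29 and 0.28), and that of Sf3b2 without RAW-FoxQ1 clone 7.1, 7.2 or 7.4 (0.18, 0.18 and 0.20) or RAW-vector clone 6 (0.17). Sf3b1, which encodes the subunit that grips the branch site and is often mutated in human myelodysplastic syndromes, had values of 10.45, 10.17, 9.99, 10.44 and 10.55 in RAW-FoxQ1 clones, against 10.38, 10.31, 10.28 and 10.44 in RAW-vector clones. The RAW-FoxQ1 clones lay on both sides of the RAW-vector clones, with clone 7.3 as the lowest. The log2 fold change of Sf3b1 was -0.03 with a 95% interval of -0.27 to 0.21, and the gene was not called.

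Among the SR proteins, Srsf2, Srsf3 and Srsf6 had the largest changes. Srsf2 (chr11:116849897-116853675), also known as SC35, a marker of nuclear speckles, had values of 11.23, 11.37, 11.38, 11.37 and 11.41 in RAW-FoxQ1 clones 7.1 to 7.5, against 9.68, 10.35, 10.54 and 9.56 in RAW-vector clones 4 to 7. The RAW-FoxQ1 clones lay close together, whereas the RAW-vector clones spanned 0.98, with clones 4 and 7 low. The log2 fold change was 1.32 (2.5-fold, standard error 0.188, adjusted p = 0.00036, limma). Srsf3 (chr17:29032660-29043372), the smallest SR protein, which also links splicing to mRNA export, had values of 9.83, 9.98, 10.02, 9.97 and 10.18 in RAW-FoxQ1 clones, against 8.42, 9.11, 9.27 and 8.45 in RAW-vector clones. Here too clones 4 and 7 were low, and the log2 fold change was 1.19 (2.28-fold, standard error 0.177, adjusted p = 0.00049). Srsf6 (chr2:162931508-162937121) had values of 10.86, 11.03, 10.79, 11.06 and 11.13 in RAW-FoxQ1 clones, against 9.55, 10.16, 10.38 and 9.46 in RAW-vector clones. Clones 4 and 7 were again the lowest, and the log2 fold change of Srsf6 was 1.09 (2.12-fold, standard error 0.185, adjusted p = 0.00107). For all 3 genes an exact permutation test of the 9 clones gave a two-sided p of 0.00794, the smallest that 5 clones against 4 allow. RefSeq lists Srsf3-ps and Snrpert as pseudogenes under the same prefixes, and whether the probes of Srsf3 and Snrpe also bind transcripts of such copies was not tested.

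The remaining higher SR genes changed by less. Srsf1, the SR protein in which the family's role in splice site choice was first described, rose by 0.87 (adjusted p = 0.00116), and Srsf10, which acts as a repressor when dephosphorylated, by 0.69 (adjusted p = 0.00071). The increases of Srsf4 and Srsf9 were 0.37 and 0.33. Srsf9 had the smallest SD of all members in both groups, with 12.08 to 12.18 in RAW-FoxQ1 clones and 11.75 to 11.83 in RAW-vector clones (adjusted p = 3.6e-05). Srsf11 was the 1 SR gene called lower, with values of 10.82, 10.84, 10.83, 10.76 and 10.88 in RAW-FoxQ1 clones, against 10.97, 11.22, 11.15 and 11 in RAW-vector clones. The groups did not overlap, and the log2 fold change was -0.25 (1.19-fold lower, standard error 0.0554, adjusted p = 0.00457, limma).

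Srsf5, Srsf7 and Srsf12 did not pass the test. Srsf5 had values of 12.09, 12.07, 11.95, 12.23 and 11.84 in RAW-FoxQ1 clones, against 11.69, 12.17, 12.28 and 11.31 in RAW-vector clones. RAW-vector clones 5 and 6 thus lay within or above the RAW-FoxQ1 range and clones 4 and 7 below it, and the interval of the difference was -0.24 to 0.59. Srsf7 differed by 0.15 with an interval of -0.11 to 0.40. Srsf12, a tissue-restricted SR protein and the member with the lowest signal, had values of 5.98, 6.07, 6.1, 6.02 and 6.01 in RAW-FoxQ1 clones, against 6.03, 6.19, 5.94 and 6.01 in RAW-vector clones. Its mean ranked at the 1.32 percentile of all rows, where signal over background limits what an array can show.

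**Figure D2:**
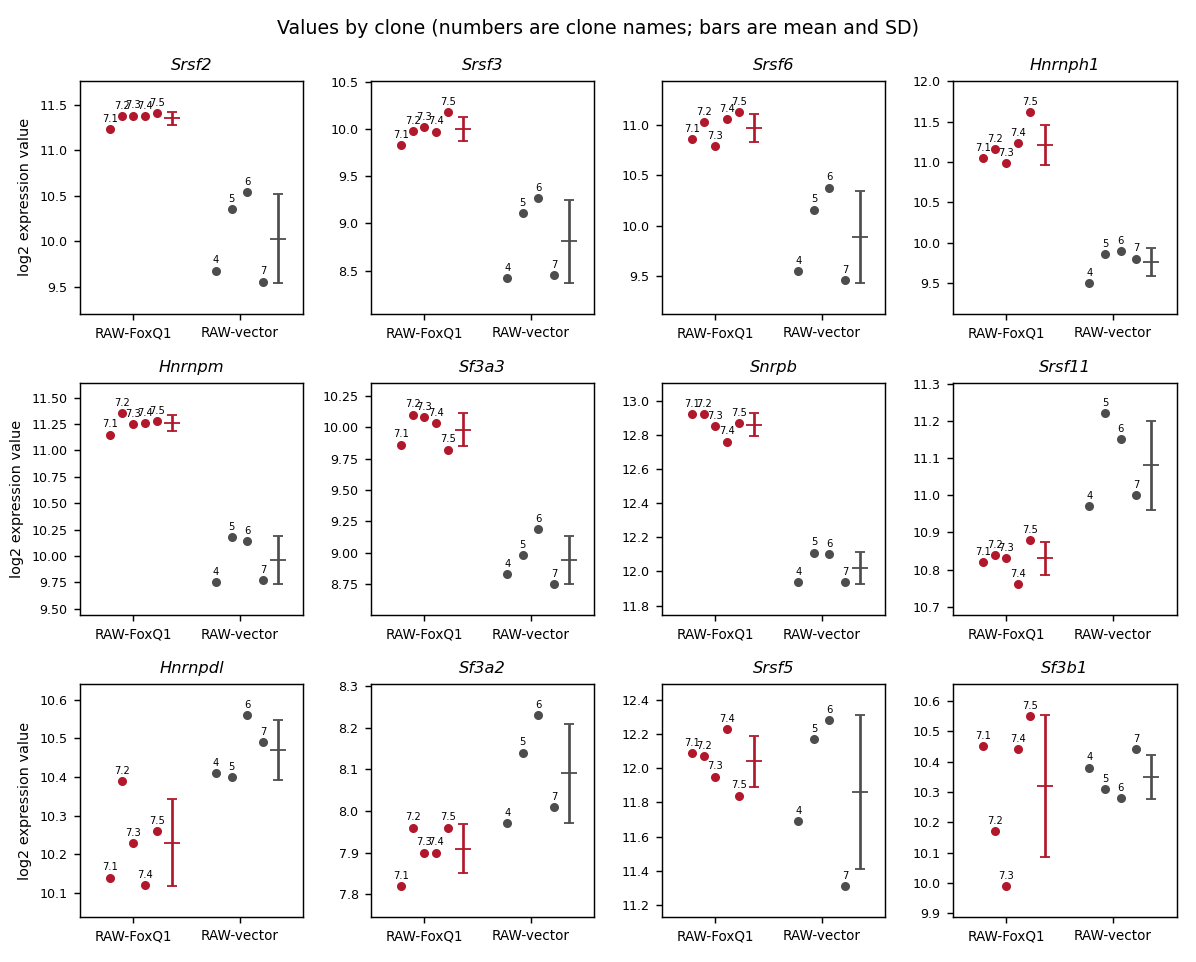
Log2 expression value of each clone (vertical axis, a scale of its own per panel) for 12 splicing factor genes, with RAW-FoxQ1 clones left, RAW-vector clones right, and bars for the mean and SD (n = 5 and 4 clones). For Srsf2, Srsf3 and Srsf6 the RAW-vector clones 4 and 7 lie lowest, whereas for Srsf5 and Sf3b1 the groups overlap.

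Promoter sequence was looked at because most members were called higher. RefSeq starts in GRCm38.p6 gave the 250 bases before the start for 35 of the 40 members, and Hnrnpll, Hnrnpul2, Sf3b5, Snrpb and Snrpd1 were not matched. Motifs were searched as exact letters on both strands, none of which contains another, and a gene counted when any of its starts held the motif. CCAAT was found in 14 of the 35 members (40%), compared to 37.5% of 27025 genes and 39.7% of the genes measured on the array. It was present in 12 of the 24 matched members called higher and in 2 of the 11 others. The ETS motif CCGGAAG was found in 12 members (34.3%), compared to 7.83% of all genes and 12.1% of the genes measured on the array. This motif was present in 6 of the 24 members called higher and in 6 of the 11 others, and neither split was tested. The forkhead motif TGTTTAC was found in Srsf6 and Snrpf, which is 5.71% of the members compared to 3.54% of genes. The E-box CACGTG was found in 1 member, Hnrnpd, or 2.86% compared to 6.86%, and neither TTTCGCGC nor TTTGGCGC, the E2F motifs, was found in any member, compared to 0.759% of genes. These matches are descriptions of sequence and not of binding sites. The windows of the 3 SR genes with the largest increase and of Sf3a3 are shown 5′ to 3′ on the strand of the gene, with the motif in capitals. They lie at chr11:116853095-116853344 (minus strand), chr17:29032410-29032659 (plus), chr2:162931258-162931507 (plus) and chr4:124714611-124714860 (plus), and the start that RefSeq's table gives for Srsf2 lies inside the annotated span of the gene.
Srsf2: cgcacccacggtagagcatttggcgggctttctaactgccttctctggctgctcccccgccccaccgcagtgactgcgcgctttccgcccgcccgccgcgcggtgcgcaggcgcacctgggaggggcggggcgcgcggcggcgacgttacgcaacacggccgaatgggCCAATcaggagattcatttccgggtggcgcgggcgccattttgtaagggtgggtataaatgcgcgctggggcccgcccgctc
Srsf3: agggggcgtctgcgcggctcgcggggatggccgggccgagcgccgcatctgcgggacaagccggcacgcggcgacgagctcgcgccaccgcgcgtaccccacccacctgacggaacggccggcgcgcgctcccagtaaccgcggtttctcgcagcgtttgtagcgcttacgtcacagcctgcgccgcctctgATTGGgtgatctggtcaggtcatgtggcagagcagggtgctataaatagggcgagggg
Srsf6: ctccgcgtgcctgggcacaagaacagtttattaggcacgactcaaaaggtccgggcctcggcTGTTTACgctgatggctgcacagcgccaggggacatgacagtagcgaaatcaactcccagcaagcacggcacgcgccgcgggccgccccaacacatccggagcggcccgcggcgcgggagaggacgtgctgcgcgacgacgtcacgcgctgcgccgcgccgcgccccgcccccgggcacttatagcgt
Sf3a3: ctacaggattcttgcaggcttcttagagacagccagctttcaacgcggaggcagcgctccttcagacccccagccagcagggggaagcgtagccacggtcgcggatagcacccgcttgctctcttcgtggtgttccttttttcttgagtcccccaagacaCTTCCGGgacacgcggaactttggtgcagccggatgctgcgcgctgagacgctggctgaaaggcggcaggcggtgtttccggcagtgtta
The capitals mark a CCAAT box that begins 82 bases before the start of Srsf2, the same box on the other strand 58 bases before the start of Srsf3, the forkhead motif 188 bases before the start of Srsf6 and the ETS motif on the other strand 90 bases before the start of Sf3a3.

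Among the hnRNP genes, 10 of 14 were called higher (71.4%), with a median log2 fold change of 0.58. Higher calls made up 19.6% of all rows and 34.3% of rows above the 75 percentile of signal. Hnrnph1 (chr11:50375257-50386528), whose product binds runs of G near splice sites, had the largest change of all members. Its values were 11.05, 11.16, 10.98, 11.23 and 11.62 in RAW-FoxQ1 clones 7.1 to 7.5, against 9.5, 9.86, 9.89 and 9.8 in RAW-vector clones 4 to 7. The lowest RAW-FoxQ1 clone lay 1.08 above the highest RAW-vector clone, and the log2 fold change was 1.44 (2.72-fold, standard error 0.13, adjusted p = 2.2e-05, limma). Hnrnpm (chr17:33646233-33685458), which binds GU-rich RNA, had values of 11.15, 11.35, 11.25, 11.26 and 11.28 in RAW-FoxQ1 clones, against 9.75, 10.18, 10.14 and 9.77 in RAW-vector clones. Here too the groups lay far apart, with a log2 fold change of 1.30 (2.46-fold, standard error 0.0959, adjusted p = 6.9e-06). For both genes the exact permutation p was 0.00794.

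A group of 5 hnRNP genes rose by 0.81 to 0.97, without overlap between the groups. Of all rows, 17.3% had every RAW-FoxQ1 clone above every RAW-vector clone. Hnrnpu, a large protein that ties RNA to chromatin, lay between 11.49 and 11.83 in RAW-FoxQ1 clones and between 10.51 and 10.85 in RAW-vector clones (0.97, adjusted p = 3.9e-05). Hnrnpab rose by 0.93 (adjusted p = 3.3e-06) and Hnrnpa2b1, an hnRNP protein of the A/B type, by 0.89 (adjusted p = 0.00044). Hnrnpr rose by 0.86 (adjusted p = 7e-05) and Hnrnpl, which binds CA-rich RNA, by 0.81 (adjusted p = 1.3e-05). Smaller increases were found for Hnrnpd, known as AUF1 and as a binder of AU-rich elements (0.36), Hnrnph3 (0.32) and Hnrnpul2 (0.24).

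Paralogs of these genes did not all follow them. Hnrnpdl, a close relative of Hnrnpd, was lower, with values of 10.14, 10.39, 10.23, 10.12 and 10.26 in RAW-FoxQ1 clones, against 10.41, 10.4, 10.56 and 10.49 in RAW-vector clones. RAW-FoxQ1 clone 7.2 lay only 0.01 under the lowest RAW-vector clone, and the log2 fold change was -0.24 (1.18-fold lower, standard error 0.0621, adjusted p = 0.0116, limma, and p = 0.0159 in the exact permutation test). Hnrnpll, a paralog of Hnrnpl known for the splicing of CD45 in lymphocytes, lay between 10.37 and 10.53 in RAW-FoxQ1 clones and between 10.46 and 10.62 in RAW-vector clones, with a log2 fold change of -0.07 (interval -0.17 to 0.04). The differences between paralogs themselves were not tested. Hnrnpa0 differed by 0.05 (interval -0.11 to 0.20). Hnrnpc, which binds U tracts and has the highest mean signal of the members, had values of 13.13, 13.35, 13.35, 13.01 and 13.04 in RAW-FoxQ1 clones, against 13.3, 13.2, 13.05 and 13.43 in RAW-vector clones. The groups overlapped over most of their range, and the difference of -0.07 had an interval of -0.29 to 0.15. Near the top of the signal range an array may compress differences, and this was not tested for Hnrnpc.

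**Figure D3:**
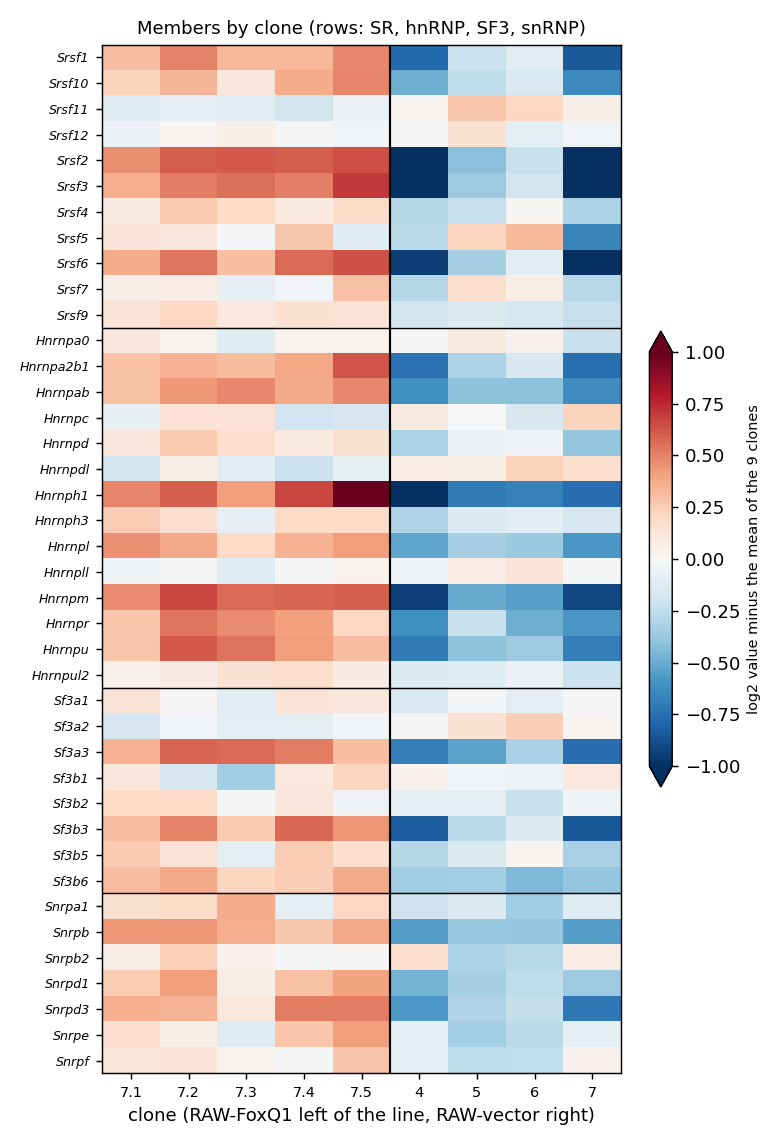
Log2 expression value of each splicing factor gene (rows, by family) in each clone (columns, RAW-FoxQ1 left of the line), drawn as the difference from the mean of the 9 clones, with red above and blue below that mean and colours ending at -1 and 1. RAW-vector clones 4 and 7 are the darkest blue in most SR and hnRNP rows, while Srsf11, Hnrnpdl and Sf3a2 run the other way.

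The RAW-vector clones differed among themselves in most SR and hnRNP genes in the same way. Clones 4 and 7 both lay below clones 5 and 6 in 10 of 11 SR genes and in 12 of 14 hnRNP genes, and in 4 of 8 SF3 and 3 of 7 snRNP genes. This is 29 of 40 members (72.5%), compared to 28.3% of all rows and 41.1% of rows above the 75 percentile of signal. The mean of the 11 SR genes was 10.28, 10.38, 10.29, 10.35 and 10.41 in RAW-FoxQ1 clones 7.1 to 7.5, against 9.61, 10, 10.06 and 9.54 in RAW-vector clones 4 to 7. Thus the SR mean varied by less among RAW-FoxQ1 clones, and the median SD of the SR genes was 0.0926 in RAW-FoxQ1 and 0.237 in RAW-vector clones. The mean of the proliferation genes in RAW-vector clones 4 to 7 was 8.33, 8.54, 8.78 and 8.3, also lowest in clones 4 and 7. The mean of the poly-A controls in the same clones was 8.492, 8.64, 8.408 and 8.705. The part of proliferation or labelling in the differences between RAW-vector clones was not tested. The mean of the 7 snRNP genes was alike in the 4 RAW-vector clones, between 11 and 11.05, against 11.42 to 11.62 in RAW-FoxQ1 clones. Single snRNP genes did differ among the RAW-vector clones, in opposite directions. Clones 4 and 7 lay below clones 5 and 6 in 3 of the 7 and above them in 3 others (42.9%). They lay above in 25.8% of all rows and in 32.7% of rows above the 75 percentile of signal. The pattern of clones 4 and 7 was noticed with the values at hand and is given with no test. Within RAW-FoxQ1, clone 7.3 was the lowest in 17 of 40 members (42.5%), compared to 24.8% of all rows and 33.8% of rows above the 75 percentile of signal.

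**Figure D4:**
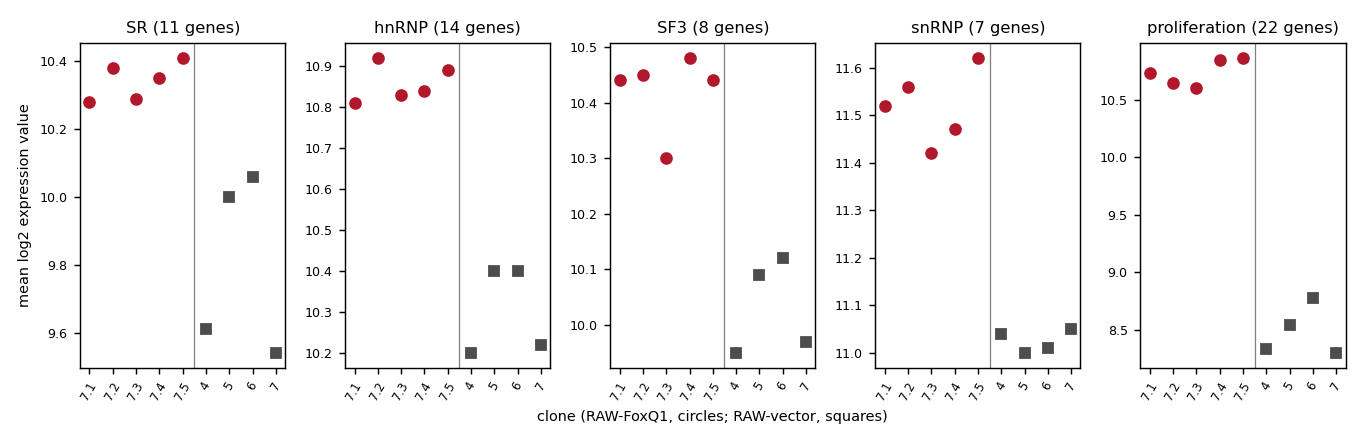
Mean log2 expression value over the genes of each family and of the 22 proliferation genes (vertical axis, a scale of its own per panel) in each clone, with RAW-FoxQ1 clones as circles left of the line and RAW-vector clones as squares right of it. In every panel the RAW-FoxQ1 clones lie above the RAW-vector clones, and the SR mean of RAW-vector clones is 9.54 to 10.06.

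Genes of the spliceosome and of connected steps that carry other names were examined from 12 lists. Of 167 measured genes of these lists, 85 were called higher (50.9%) and 22 lower (13.2%), with a median log2 fold change of 0.23. For comparison, 19.6% of all rows were called higher and 21.4% lower. In the rows of high signal described above, the shares were 34.3% and 30.9%. Those rows are brighter than the listed genes, with a median percentile of 87.5 against 78.5. The counts of single lists given below were not tested against these shares. In the list of branch site recognition, 5 of 9 genes were higher and 0 lower, led by Ddx42 (0.67), U2af1l4 (0.55) and Puf60 (0.47). In the list of U1-associated proteins, 5 of 9 were higher, among them Luc7l3 (0.77), and Prpf40b was lower (-0.56). The U4/U6.U5 tri-snRNP had 9 of 15 genes higher and 1 lower. Its leading genes were Prpf31 (1.53), which joins the U4/U6 and U5 particles, Eftud2 (1.02), the GTPase of the U5 snRNP, and Prpf3 (0.99). For the Prp19 complex and the catalytic steps the counts were 13 higher and 2 lower of 26, with Ppil1 (1.5) and Bud31 (1.01) first.

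LSm proteins, which form the ring on U6 RNA and a related ring in mRNA decay, had 6 of 8 genes higher and 1 lower. Lsm3 (1.43) and Lsm2 (1.16) had the largest increases, whereas Lsm11, which belongs to the U7 snRNP of histone mRNA processing, was lower (-0.45). Of genes for the assembly of snRNPs, 10 of 17 were higher and 2 lower. Gemin6 of the SMN complex rose by 1.07, and Snupn, the import adaptor of snRNPs, fell by 0.57. In the minor spliceosome, which removes a rare class of introns, all 10 genes were called, 5 in each direction. Zcrb1 (0.64), Snrnp25 (0.60) and Zrsr2 (0.37) were higher, while Zrsr1 (-0.75), Snrnp48 (-0.72) and Pdcd7 (-0.39) were lower.

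The exon junction complex and the export factors that act with it had 12 of 15 genes higher and 0 lower. Ddx39a, an RNA helicase of mRNA export, lay between 11.95 and 12.18 in RAW-FoxQ1 clones and between 9.88 and 10.25 in RAW-vector clones (2.03, adjusted p = 2e-07). Alyref rose by 1.39 and Magoh by 1.18. Of 10 hnRNP-type proteins with other names, 6 were higher and 1 lower, among them Ptbp1 (1.17), a repressor that binds pyrimidine tracts, and Syncrip (0.87), whereas Pcbp2 was the lower one (-0.43).

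Of the 9 kinases that phosphorylate SR proteins, 1 was called higher and 3 lower (33.3%), where 21.4% of all rows and 30.9% of rows above the 75 percentile of signal were called lower. With the poly-A covariate described at the end, Srpk3 was the 1 kinase still called. Clk1, a nuclear SR kinase, lay between 9.62 and 9.94 in RAW-FoxQ1 clones and between 10.31 and 10.88 in RAW-vector clones (-0.82, adjusted p = 0.00036). Clk3 (-0.63) and Srpk3 (-0.34) were lower and Prpf4b (0.41) was higher, whereas Srpk1 and Srpk2, which act mostly in the cytoplasm, had changes of -0.11 and -0.10 and were not called. Among 18 SR-like and SR-related genes 5 were higher (27.8%) and 2 lower (11.1%), with Acin1 (0.99) and Tra2a (0.91) first and Pnisr (-0.55) lowest. Other splicing regulators had 8 of 21 genes higher (38.1%) and 4 lower (19.0%). Of all rows 19.6% were called higher, and of rows above the 75 percentile of signal 34.3%. The share of higher calls in both lists is thus near that of rows of high signal, but both lists are dimmer than those rows. The median percentile of signal was 74.5 for SR-like and SR-related genes and 69.4 for the other regulators, against 87.5 for those rows. Fubp1 (0.76), Rbm10 (0.75) and Cirbp (0.69) were higher, and Qk (-0.67), Mbnl2 (-0.65) and Rbfox1 (-0.50) were lower. For Rbfox1 the groups overlapped, with values up to 7.43 in RAW-FoxQ1 clones and from 7.36 in RAW-vector clones.

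**Figure D5:**
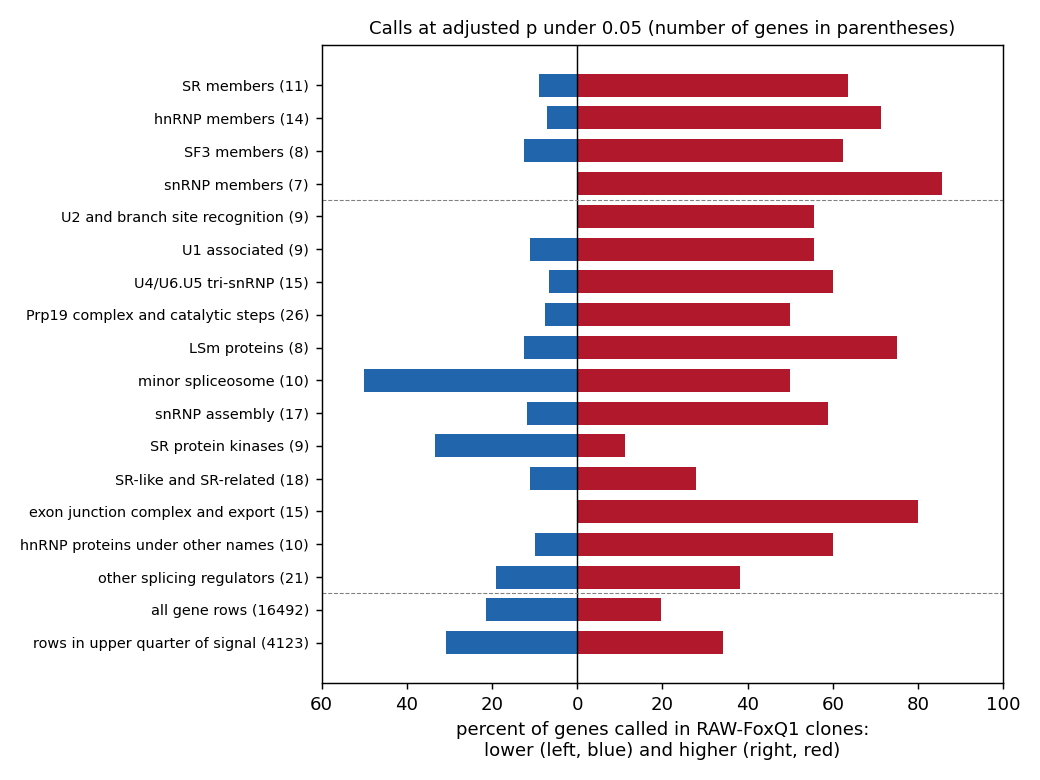
Percentage of genes called lower (left, blue) and higher (right, red) at an adjusted p under 0.05 for the 4 splicing factor families, 12 lists of other splicing genes and all rows, with the number of genes in parentheses. The families have 62.5% to 85.7% of genes called higher, compared to 19.6% of all rows, and 0% to 12.5% called lower, compared to 21.4% of all rows.

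The fit was repeated with the mean of the poly-A controls of each array as a covariate. It left 15 members called higher and 0 lower, where 8.86% of all rows were called higher and 7.72% lower. The members that kept the call were the 5 measured Sm genes, Sf3a3, Sf3b6, Srsf9 and 7 hnRNP genes. These hnRNP genes were Hnrnph1, Hnrnpm, Hnrnpab, Hnrnpa2b1, Hnrnpl, Hnrnpr and Hnrnpu. The sign of the change was kept in 37 of 40 members, and the median log2 fold change was 0.47. Srsf2 and Srsf3 differed by 1.12 and 1.18 in this fit, with adjusted p of 0.0854 and 0.0642. The controls differed between the groups without overlap, so that this fit has larger errors, and labelling and FoxQ1 cannot be fully told apart in these arrays.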

How the data were processed

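Total RNA of 9 RAW-264.7 clones was measured on Affymetrix Mouse Genome 430 2.0 chips, with 1 array per clone. The authors annotated the arrays with Custom CDF version 12, which has Entrez gene definitions, and applied quantile normalisation. RMA is named in the processing notes of the submitters without a version. As deposited, each row holds the log2 expression of 1 gene in the 9 clones. Scanner files were not used here, so that neither the background correction nor the summary of probes was changed, and the number of arrays limits the precision.

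Of 16556 rows, 64 control rows were left out, and 16240 of the 16492 gene rows were named through RefSeq (GRCm38.p6) by Entrez ID, 18 through the annotation of the array only, while 234 stayed unnamed. The values were fitted with lmFit and eBayes (limma 3.58.1, R 4.3.3) with the group as the only term, over all gene rows with Benjamini-Hochberg adjustment, and genes were called at an adjusted p under 0.05. Intervals are 95% intervals of that fit. Exact permutation tests were two-sided over the 126 divisions of the clones into 5 and 4. P-values set the difference between the groups against the spread between these clones. The script was tested on simulated data.

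The members and the lists were chosen with earlier results of these data known. Values per clone are given for the 6 largest called increases, for called decreases and for the largest change of each family. They are also given for the members with the highest and lowest signal. Srsf5 and Sf3b1 were added after their values were seen, and the values of Snrpb2 in RAW-vector clones are given outside these rules. Up to 3 called genes per direction are named of each other list. A withheld item is not reported here. The alternatives tried were one-way ANOVA as in the methods, array weights, eBayes with a trended and robust prior, a filter at the 40th percentile of signal, averaging of rows of 1 symbol, another centring of arrays, the poly-A controls as a covariate, an adjusted p under 0.01, symbols of the array annotation, and leaving out each clone in turn.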

Additional observations from a re-analysis of the deposited data

Results flagged for a closer look

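Within the groups of 5 and 4 clones, the highest or lowest clone of each member was compared with the others by Dixon's criterion. This singled out 3 of 80 groups, and chance gives about 1 in 20. Srsf2 was lowest in RAW-FoxQ1 clone 7.1, with 11.23, while the other RAW-FoxQ1 clones lay between 11.37 and 11.41. Hnrnpa2b1 was highest in RAW-FoxQ1 clone 7.5, with 11.57, while the others lay between 11.24 and 11.33. Hnrnph3 was lowest in RAW-FoxQ1 clone 7.3, with 9.09, while the others lay between 9.34 and 9.42. Leaving out each of these clones changed no call of the 3 genes.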

How the results depend on the processing

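Over the 40 members and all alternatives that test single genes, 588 of the values kept direction and call, 38 lost the call, 2 gained it and 11 changed sign. With the poly-A controls as a covariate, the members called higher and lower were 15 and 0, SR proteins 1 and 0, SF3 proteins 2 and 0, hnRNP proteins called lower 0, and other splicing genes 41 and 11. At an adjusted p under 0.01, 1 member was called lower. SF3 proteins called lower were 0 under the methods' one-way ANOVA and under array weights, and 0 to 1 when single clones were left out. Leaving out single clones gave 25 to 29 members called higher and 2 to 3 called lower. The log2 fold changes that changed sign belong to genes that were not called in any of these fits. Srsf12 was 0.011 with the poly-A covariate and -0.041 to 0.043 without single clones, Srsf5 was -0.274 with the covariate and -0.013 to 0.311 without single clones, Hnrnpa0 was -0.02 to 0.082 without single clones, and Sf3b1 was 0.008 with array weights, 0.331 with the covariate and -0.088 to 0.053 without single clones. The cause was not tested.

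Calls were also lost for Sf3a2, Snrpe and Snrpf under one-way ANOVA, and for Sf3a2, Sf3b2, Sf3b5, Snrpe and Snrpf without single clones. Sf3a1 was called with array weights and without clone 7.3. No paired analysis was possible because the groups share no clone numbers. Low signal limits Srsf12.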
